A study of Mus musculus with 16 samples.

Results

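The genes that encode 7 transcription factors of the hepatocyte, the main epithelial cell of the liver, are described by the open chromatin at their starts and loci: Hnf4a, Foxa1, Foxa2, Foxa3, Onecut1, Nr5a2 and Prox1. They were chosen for their role, not by a measured value, but with earlier results of these data known. They make up 7 of 21938 protein-coding genes of the GENCODE vM21 annotation (GRCm38). A peak was 1 summit line of a deposited list. A promoter peak had its summit within 3000 bp of an annotated start of the gene, and a locus was the gene with 20 kb on either side. A locus can hold starts of neighbouring genes, and which gene a region acts on was not tested. ATAC-seq, in which a transposase cuts accessible DNA, was performed on 8 tissues of male C57BL/6 mice, bought at 12 weeks of age, that were either fed or fasted for 24 h (fasting). The tissues were liver, kidney, lung, muscle, heart, brown adipose, white adipose and spleen. Tissue of 3 mice per state was pooled, so each of the 16 groups had 1 library, all tissues of a state came from the same mice, and no library has a replicate. A difference between a fed and a fasting library therefore compares 2 libraries, and the 2 libraries of a tissue are the only measure of its spread.

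Hepatocyte identity rests on a small network of factors that bind the regulatory DNA of liver genes and of one another. FOXA proteins (Foxa1, Foxa2 and Foxa3) are forkhead factors that can bind closed chromatin, Hnf4a and Nr5a2 are nuclear receptors that activate genes of lipid, bile acid and glucose metabolism, Onecut1 (HNF-6) is a cut-homeodomain factor, and Prox1 is a homeodomain factor of liver, lymphatic endothelium and striated muscle. Several of them are also used outside the liver, with Hnf4a in the kidney tubule and Foxa1 and Foxa2 in lung epithelium. A gene of this kind can have several starts that are used in different tissues.

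The strength of a peak was given as its percentile by -log10 p within its own list, with 0 where no peak was listed. Lists held 298996 to 299529 peaks, and over the 19719 genes with a promoter peak in at least 1 library the median percentile of a library lay between 89.9 and 93.5. The lists were limited to about 300000 peaks, and the weakest listed -log10 p ran from 2.48 to 7.11 between libraries, so a peak that is not listed may still be a weakly open site. The number of tags (reads piled up by the peak caller) at each summit could be recovered, and the number expected from the background, which follows sequencing depth, ran from 2.80 tags in fed liver and 2.82 in fasting liver to 12.8 in fed brown adipose. The liver libraries were thus the shallowest. Among 5 hepatocyte markers (Alb, Ttr, Apoa1, Tat and Serpinc1) the mean promoter percentile was 91.0 in fed and 91.7 in fasting liver and 18.7 to 64.2 in the other 14 libraries. Marker lists of kidney (proximal tubule; collecting duct and distal tubule), lung epithelium, skeletal muscle, heart muscle, brown fat and spleen B cells, of 5 genes each, had their highest means in the tissue of that name, and the fat list in brown and white adipose. Single genes of these lists did not follow the mean. Slc12a3 and Hsd11b2 of the kidney lists and Scgb1a1 of the lung list stood higher in both liver libraries than in any other. Sftpc stood at 99.1 and 93.2 in liver against 84.6 and 82.2 in lung, and Slc34a1 was highest in spleen (97.5 and 97.7). In a bulk tissue, fewer cells of a type and a less open site in each cell cannot be told apart.

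For Hnf4a, Foxa1, Foxa2, Onecut1 and Nr5a2 the promoter peak stood at a higher percentile in both liver libraries than in any of the other 14. These were 5 of the 7 members, beside 6.10% of all genes tested. The median of the 7 members' mean liver percentiles was 95.4, against 89.8 over all genes, and the median difference between liver and the mean of the other tissues was 29.8 points, against -0.628. Foxa3 and Prox1 did not stand above the other tissues in liver. This count followed how peaks were ranked and assigned. It was 6 of 7 when only peaks nearest to the gene's own starts were taken, 3 of 7 in a window of 1000 bp and 2 of 7 when peaks were ranked by fold enrichment over the local background.

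**Figure D1:**
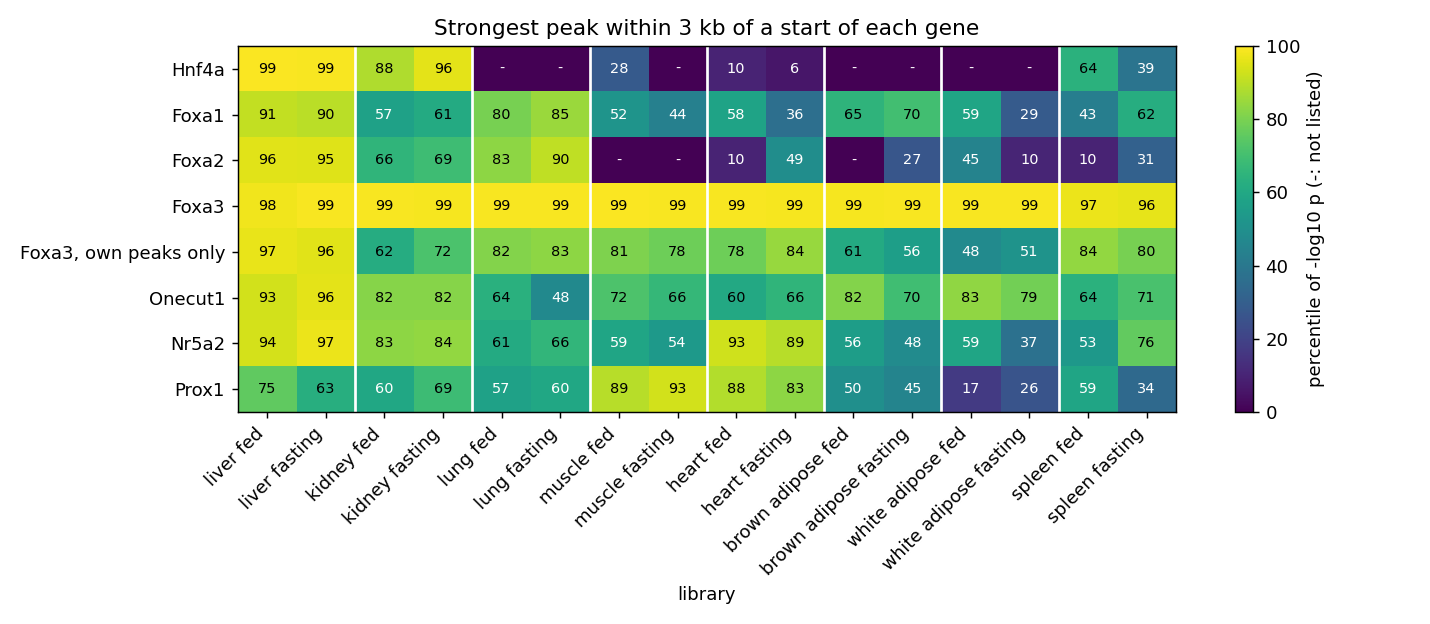
Percentile of the strongest peak within 3 kb of a start (colour and number) for each gene (lines) in each library (columns; 1 library per tissue and state; -, no peak listed). Hnf4a lies at 99.4 and 99.2 in liver and is not listed in lung or either fat, while Prox1 is highest in muscle and heart and Foxa3 is high everywhere unless only its own peaks are counted.

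Hnf4a (ENSMUSG00000017950.16, chr2:163506808-163572910, plus strand) is the nuclear receptor at the centre of the network. Its promoter percentile was 99.4 in fed and 99.2 in fasting liver. In kidney it was 87.9 fed and 95.8 fasting. It was 64.0 and 38.6 in spleen, 28.4 and 0 in muscle, 9.83 and 6.15 in heart, and 0 in all 6 libraries of lung, brown adipose and white adipose. Liver and kidney thus stood apart from every other tissue without overlap. At the strongest liver peak the fed liver library had 104 tags (95% exact Poisson interval 85.0 to 126.0, counting error only), 37.1 times its background, and the fed kidney library had 231 tags, 49.5 times its background. In fasting, liver had 201 tags, 71.3 times background, and kidney 303 tags, 65.3 times, so the order of liver and kidney on this scale differed between the states. The p behind the percentile is set against the locally expected number, which was 8.02 tags in fed liver and 42.2 in fed kidney.

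The annotation gives Hnf4a 3 separate starts, and the tissues that list a peak at them differed. The first (chr2:163506808-163506808, transcript Hnf4a-205) is the upstream start known as P2, which is used in pancreas and fetal liver. The second lies 40 kb downstream (chr2:163546817-163547188, 3 transcripts) and holds the P1 promoter of adult liver and kidney. The third lies a further 3 kb into the gene (chr2:163550083-163550083, Hnf4a-204). Their sequences up to the annotated start are shown for the part of the window within 150 bp of the summit that holds no untranslated region, read from the RefSeq GRCm38.p6 genome. In these and the later sequences, capitals mark any match to the 4 motifs searched (FOXA, HNF4, ONECUT and NR5A2), and genes of the minus strand are given on that strand.

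Hnf4a first start, fed liver summit, chr2:163506643-163506807, plus strand: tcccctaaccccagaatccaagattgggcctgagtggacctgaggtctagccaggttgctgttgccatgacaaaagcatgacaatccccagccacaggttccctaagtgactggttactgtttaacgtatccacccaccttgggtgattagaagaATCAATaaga
Hnf4a second start, fed liver summit, chr2:163546998-163547186, plus strand: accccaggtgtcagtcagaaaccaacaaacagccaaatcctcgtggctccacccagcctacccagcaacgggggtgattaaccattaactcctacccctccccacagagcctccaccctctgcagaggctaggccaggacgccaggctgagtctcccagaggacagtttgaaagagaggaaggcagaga
Hnf4a start 3, fed kidney summit, chr2:163549903-163550082, plus strand: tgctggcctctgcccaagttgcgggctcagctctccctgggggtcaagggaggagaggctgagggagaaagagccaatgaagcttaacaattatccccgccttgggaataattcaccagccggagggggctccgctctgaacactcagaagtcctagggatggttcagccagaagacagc

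The second start was the strongest in liver, and its summits lay at -39 bp in fed and -53 bp in fasting liver and at -36 bp and -44 bp in kidney. At the first start, peaks within 500 bp stood at 92.0 and 93.9 in liver, with 45 and 116 tags, and at 3.30 and 18 in kidney, with 47 and 43 tags. Apart from these, only fasting spleen listed a peak there, at 38.6 with 14 tags. Liver thus ranked both starts high, while of these starts kidney ranked only the second high. The third start showed the opposite order. Kidney listed peaks there at 81.8 and 84.7, with 199 and 196 tags and summits at -30 and -41 bp. Within 500 bp of it fed liver listed none and fasting liver listed 1 at 5.54 that missed q under 0.01. This region was private to kidney, meaning that both kidney libraries listed it with q under 0.01 and no other library listed any peak in it.

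The Hnf4a locus held 47 peaks with q under 0.01 in fed and 65 in fasting liver, and 63 and 71 in kidney, against 8 to 43 in the other 12 libraries. Per 100000 such peaks of the library, fasting white adipose (16.6) came close to fed liver (18.2). When overlapping peaks of all libraries were merged, the locus had 78 regions. Of these, 23 were listed in both liver libraries, 27 in both kidney libraries and 17 in all 4. Of all 760105 merged regions, 0.512% were listed in both libraries of liver and of kidney and in no other tissue. At the 7 loci there were 10 of 342 such regions (2.92%), and 6 of the 10 lay at Hnf4a, with 3 at Nr5a2 and 1 at Onecut1. No region of the Hnf4a locus was private to liver, and 5 were private to kidney. The 7 loci together had 7 kidney-private regions (2.05%), beside 2.72% of all regions. The strongest kidney-private region, chr2:163560067-163560686 inside the gene, stood at 90.3 and 84.5. The strongest liver region of the locus outside promoters was chr2:163580141-163580764, 73.7 kb from the first start and past the gene's end. It stood at 97.8 and 98.4 in liver and was also listed in 11 libraries of the other tissues with q under 0.01, up to 94.9 in fasting white adipose, but in neither kidney library.

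In spleen and white adipose, Hnf4a values came beside markers of other organs. A list of 5 pancreatic acinar genes (Ptf1a, Cpa1, Cel, Pnlip and Rbpjl) had means of 42.0 and 39.4 in spleen. None of the 5 was at 0 there, while 2 to 4 of the 5 were at 0 in every other library. The genes differed, and Rbpjl (95.5 and 94.2 in spleen) was as high in liver (98.6 and 94.9). Cel and Pnlip were at 3.76 to 16.5 in spleen, and Cpa1 (62.9 and 38.6) was higher in white adipose (78.5 and 85.4). Ptf1a was highest in spleen (30.7 and 50.8). The white adipose locus held 28 and 43 Hnf4a peaks without any promoter peak. A list of 8 epididymis genes had a mean of 68.6 in fed white adipose with 1 at 0, and of 19.1 in fasting white adipose with 6 at 0. The part of such cells in the Hnf4a peaks of these tissues was not tested.

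**Figure D2:**
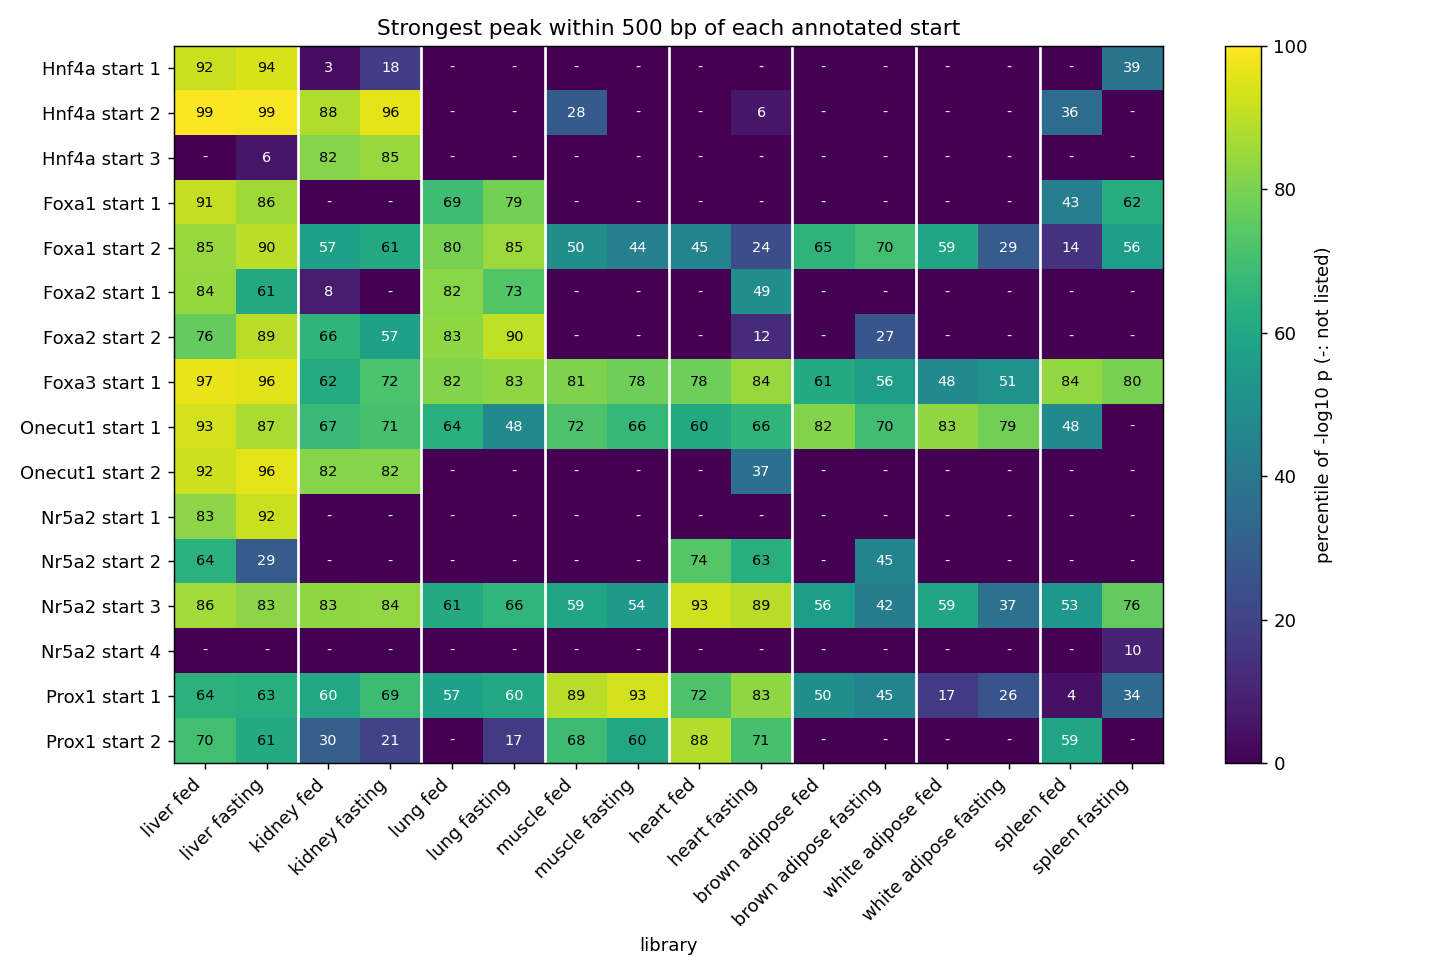
Percentile of the strongest peak within 500 bp of each of the 16 separate starts (starts within 500 bp of one another are 1) in each of the 16 libraries (-, no peak listed). Nr5a2 start 1 is listed in liver alone, Hnf4a start 3 is strong in kidney alone, Foxa1 start 1 and both Foxa2 starts stand out in liver and lung, and Prox1 start 1 is highest in muscle.

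Foxa1 and Foxa2, the forkhead factors shared by liver and lung, were strongest in these 2 tissues. The promoter percentile of Foxa1 (ENSMUSG00000035451.7, chr12:57540628-57546916, minus strand) was 90.8 and 89.7 in liver and 79.5 and 85.1 in lung. It was 57.1 and 61.2 in kidney, and ran from 28.8 to 69.8 over the other 10 libraries. Lung thus lay below liver and above all other tissues in percentile by p. Ranked by fold, lung (63.6 and 66.0) lay below brown adipose (77.5 and 76.2), which overlapped with liver (78.0 and 74.1), and the difference between liver, kidney and lung and the rest was 7.79 points. For Foxa2 (ENSMUSG00000037025.11, chr2:148042877-148046969, minus strand) the values were 95.6 and 95.1 in liver, 83.2 and 90.3 in lung, and 65.6 and 68.8 in kidney. The other 10 libraries ran from 0 to 49.2, with 0 in both muscle libraries and fed brown adipose. Liver, kidney and lung did not overlap with the other 5 tissues for Foxa2.

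Liver, kidney and lung were compared with the other 5 tissues for every gene, by an exact two-sided permutation test over the 56 choices of 3 tissues, whose smallest p is 0.0179. Foxa2 had a mean percentile of 83.1 in liver, kidney and lung and 18.2 in the others, a difference of 64.9 points (exact permutation p = 0.0179, Benjamini-Hochberg adjusted over all genes 0.749). Foxa1 differed by 25.6 points, 77.2 against 51.7 (exact permutation p = 0.0357, adjusted 0.749). These 2 of 7 members stood beside 1.98% of all genes at an unadjusted p under 0.05 and higher. For Hnf4a the difference was 49.0 points (exact permutation p = 0.125), with lung at 0. It was 18.3 for Nr5a2, 6.11 for Onecut1, 5.43 for Prox1 and 0.121 for Foxa3, with exact permutation p values of 0.232, 0.536, 0.821 and 0.982. None of the 19719 genes passed after adjustment, and the lowest adjusted p was 0.749. The count fell from 2 to 1 member when libraries were thinned to equal depth and when peaks were ranked by fold. It also fell to 1 when muscle, heart, white adipose or spleen was left out. Leaving out a tissue leaves fewer choices of 3 tissues and raises the smallest p, so that fall alone does not show a weaker difference.

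Both genes have a pair of starts. The upstream start of Foxa1 (chr12:57546916-57546916, the non-coding transcript Foxa1-202) had peaks within 500 bp at 90.8 and 85.6 in liver, with 60 and 93 tags. Lung listed 69.0 (summit 484 bp downstream) and 79.0 (at -62 bp), and spleen 42.6 and 62.2 with 14 and 19 tags. Kidney, muscle, heart and both fats listed none within 500 bp. The coding start 795 bp downstream had a peak with q under 0.01 in 15 of 16 libraries. For Foxa2 the strongest liver peak lay at -1622 bp from the first start in fed and -1628 bp in fasting liver (78 and 132 tags). Lung had the same peak at 69.6 and 87.6 and kidney at 60 and 68.8. Without that upstream element, in the window of 1000 bp, Foxa2 stood at 84.0 and 89.1 in liver and at 83.2 and 90.3 in lung, so that liver and lung overlapped.

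Regions shared by liver and lung alone lay at these loci. Of all merged regions 0.0722% were listed in both libraries of liver and of lung and in no other tissue. At the 7 loci there were 5 of 342 (1.46%), of which 4 lay at the Foxa2 locus and 1 at Foxa1. All 4 at the Foxa2 locus lay nearer to a start of the neighbouring gene 9030622O22Rik than to a Foxa2 start. The region chr2:148039970-148040300 held such a start. The Foxa2 locus held 20 and 28 peaks in liver, 25 and 26 in lung and 10 and 8 in kidney. The other 10 libraries listed 0 to 2 peaks there. For Foxa1 the peaks numbered 18 and 21 in liver, 22 and 25 in lung, 9 and 8 in kidney and 2 to 8 elsewhere. Lung and liver thus overlapped in the number of peaks at Foxa2. At Foxa1 both lung libraries had more peaks than liver, but liver lists held fewer peaks with q under 0.01. Per 100000 such peaks Foxa1 had 6.97 and 8.66 in liver and 7.35 and 8.35 in lung, which overlap. At Foxa2 every other tissue but kidney was nearly empty. The 5 lung epithelium markers (Sftpc, Sftpb, Scgb1a1, Ager and Nkx2-1) had means of 75.3 and 81.4 in lung and 53.1 and 65.8 in liver, and their part in the lung peaks was not tested.

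The strongest liver regions outside promoters are shown for both genes, since they carry the liver and lung pattern. The Foxa2 region (chr2:148029928-148030773, 16.5 kb downstream of the first start) stood at 96.3 and 96.9 in liver, at 63.0 and 68.5 in lung, and was listed in no other library. It lay 7497 bp from a start of 9030622O22Rik and 14691 bp from a Foxa2 start. The Foxa1 region (chr12:57534549-57535229, 12 kb downstream of the first start) stood at 92.3 and 81.9 in liver and 84.6 and 88.3 in lung, and elsewhere only at 12 in fasting brown adipose and 0.414 in fed heart. It lay 8823 bp from a start of Gm37291 and 10892 bp from a Foxa1 start. In the Foxa1 window the FOXA motif TGTTTAC lies at the fed liver summit.

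Foxa2 downstream region, chr2:148030337-148030636, minus strand: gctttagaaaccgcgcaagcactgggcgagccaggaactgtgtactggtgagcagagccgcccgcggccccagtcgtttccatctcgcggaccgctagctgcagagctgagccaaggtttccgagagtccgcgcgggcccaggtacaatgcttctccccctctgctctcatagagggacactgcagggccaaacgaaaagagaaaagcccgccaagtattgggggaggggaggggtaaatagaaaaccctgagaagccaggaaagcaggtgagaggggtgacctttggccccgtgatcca
Foxa1 downstream region, chr12:57534786-57535085, minus strand: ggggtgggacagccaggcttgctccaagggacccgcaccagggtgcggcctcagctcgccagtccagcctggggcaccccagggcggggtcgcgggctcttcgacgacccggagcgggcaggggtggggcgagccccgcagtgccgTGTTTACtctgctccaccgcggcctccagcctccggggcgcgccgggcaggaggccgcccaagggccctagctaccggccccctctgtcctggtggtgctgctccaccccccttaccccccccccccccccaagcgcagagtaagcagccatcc

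Foxa3 (ENSMUSG00000040891.6, chr7:19013284-19023538, minus strand), the remaining forkhead gene, has 1 start, and the neighbouring gene Sympk, which encodes a scaffold protein of mRNA 3′ end processing, starts 839 bp away. The strongest peak within 3000 bp of the Foxa3 start stood between 96.4 and 99.3 in all 16 libraries and was nearer to the Sympk start, with summits at -627 and -632 bp from the Foxa3 start in liver. Sympk had the same values (Pearson r = 1). When only peaks nearest to the Foxa3 start were taken, liver stood at 96.6 and 95.7 and the other 14 libraries between 47.8 and 84.4. These peaks had summits at -161 and -159 bp in liver with 83 and 156 tags. Foxa3 then also stood above all other tissues in both liver libraries, while its start was listed in every tissue.

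The Foxa3 locus had 25 and 32 peaks in liver and 19 to 29 in the other libraries, so its number of peaks hardly set liver apart. The locus also holds starts of the neighbouring genes Irf2bp1 and Mypopos. The regions differed more. Of its 28 merged regions, 6 were private to liver. The strongest of these (chr7:19010478-19010921, 12.8 kb downstream of the start, past the gene's end) stood at 95 and 96.9 in liver with no peak in the other 14 libraries. Like most of the 6, this region lay nearer to a start of Irf2bp1 (6434 bp) than to that of Foxa3 (12617 bp). Its window is shown because it is the strongest liver-private region outside promoters at any of the loci. It holds the FOXA motif in the opposite orientation, centred 23 bp from the summit.

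Foxa3 downstream region, chr7:19010563-19010862, minus strand: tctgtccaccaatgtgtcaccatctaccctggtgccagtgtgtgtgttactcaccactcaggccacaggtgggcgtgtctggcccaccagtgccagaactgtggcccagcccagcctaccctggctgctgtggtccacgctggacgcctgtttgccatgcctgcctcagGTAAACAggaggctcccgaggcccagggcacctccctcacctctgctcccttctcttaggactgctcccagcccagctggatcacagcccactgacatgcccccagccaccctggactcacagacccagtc

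Onecut1 (ENSMUSG00000043013.10, chr9:74861921-74891781, plus strand) had promoter percentiles of 93.2 and 95.9 in liver. It stood at 82.0 and 81.9 in kidney, 83.3 and 78.8 in white adipose and 81.5 and 69.5 in brown adipose. The other 8 libraries ran from 47.6 to 72.1. Liver led by 9.90 points over the highest other library, the widest margin among the members. Ranked by fold, fed brown adipose (94.6) and fed white adipose (90.9) stood above both liver libraries (78.0 and 87.4).

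The tissues differed in where the Onecut1 peak lay. At the coding start 15 libraries listed a peak with q under 0.01 within 500 bp. The second start (chr9:74866484-74866484, the non-coding transcript Onecut1-202) lies 4.56 kb into the gene. Near it, liver had summits 469 and 464 bp downstream at 92.2 and 95.9, and kidney 348 and 468 bp downstream at 82.0 and 81.9. In lung, muscle, brown adipose, white adipose and spleen the strongest peak lay 1518 to 1560 bp downstream instead, at 11.7 to 71.1. Within 500 bp of this start those tissues listed none, and heart listed 1 peak, at 36.6 in fasting. Liver and kidney thus stood apart there. Its window, in an intron, holds the ONECUT motif ATTGAT.

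Onecut1 second start, fed liver summit, chr9:74866803-74867102, plus strand: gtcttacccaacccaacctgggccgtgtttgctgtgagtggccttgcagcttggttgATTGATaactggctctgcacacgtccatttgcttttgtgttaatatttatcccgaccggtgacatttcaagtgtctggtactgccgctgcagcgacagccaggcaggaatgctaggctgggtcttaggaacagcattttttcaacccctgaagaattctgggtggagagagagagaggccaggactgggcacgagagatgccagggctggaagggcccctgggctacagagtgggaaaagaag

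The Onecut1 locus had 32 and 31 peaks in liver, 12.4 and 12.8 per 100000 peaks of the library, against 2.39 to 8.10 per 100000 in the other libraries. By this measure both liver libraries stood above all others at 3 of the 7 loci, Onecut1, Nr5a2 and Prox1, beside 5.18% of all genes. Only 2 of its 45 regions were private to liver, at a mean of 59.5 and 56.9.

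**Figure D3:**
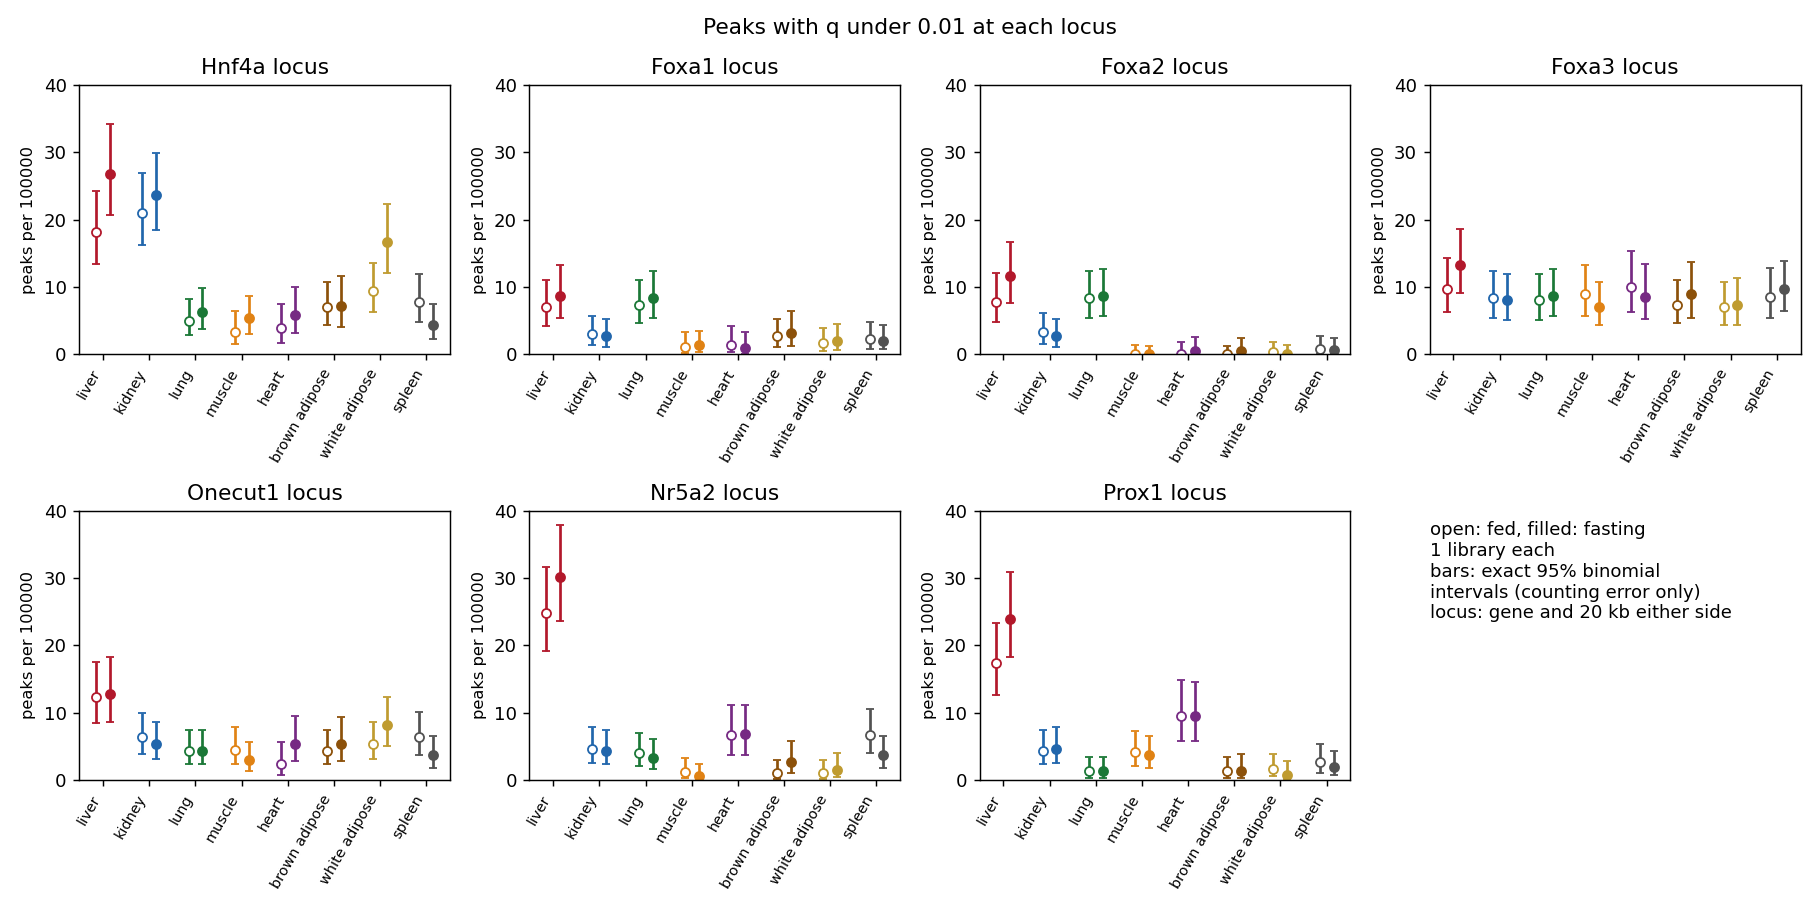
Number of peaks with q under 0.01 at each locus per 100000 such peaks of the library (points; open, fed; filled, fasting; 1 library each) with exact 95% binomial intervals, which cover counting error only. Liver stands far above the rest at Nr5a2 (24.8 and 30.1). At Prox1 (17.4 and 23.9) it is highest, but the interval of fed liver overlaps those of heart. At Hnf4a it stands beside kidney, with fasting white adipose (16.6) close to fed liver (18.2). It stands beside lung at Foxa1 and Foxa2, and close to all tissues at Foxa3.

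Nr5a2 (ENSMUSG00000026398.14, chr1:136842571-136960448, minus strand), the receptor that drives bile acid synthesis genes, had the locus most set apart by liver. It held 64 peaks in fed and 73 in fasting liver, 24.8 (95% exact binomial interval 19.1 to 31.7) and 30.1 (23.6 to 37.9) per 100000. The other 14 libraries held 2 to 18 peaks, at most 6.77 per 100000. The liver mean was 6.40 times the mean of the others, with 1 added to both, and the median of this ratio over all genes was 0.943. Of the 93 merged regions 33 were listed in both liver libraries, and 20 of these were private to liver. At the 7 loci together 38 of 342 regions (11.1%) were private to liver, beside 1.41% of all regions. Prox1 held 8 of them, Foxa3 6, Onecut1 2, and Foxa1 and Foxa2 1 each.

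Liver and the other tissues also differed in which Nr5a2 starts had a peak. The gene has 4 separate starts. At the first (chr1:136960380-136960448, 2 coding transcripts) fed liver listed a peak within 500 bp at 82.7 with 32 tags and fasting liver at 91.8 with 86 tags. None of the other 14 libraries listed a peak within 500 bp. Further into the first 3000 bp liver reached 93.6 (fed, 2.52 kb downstream of the start) and 97.2 (fasting, 599 bp downstream). The third start (chr1:136949173-136949562, 10.9 kb downstream) had a peak within 500 bp with q under 0.01 in all 16 libraries. There heart was highest at 92.8 and 89.2, liver stood at 86.0 and 82.6, kidney at 82.9 and 83.7, and the other 10 libraries at 37.4 to 75.9. The second start was listed within 500 bp in liver (64.0 and 28.8), heart (73.8 and 63.1) and fasting brown adipose (45.3). The fourth was listed in fasting spleen alone, with 12 tags. The first start thus separated liver from all other libraries, and the third did not.

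The liver-private regions of Nr5a2 spread over the gene, with 18 of the 20 inside it. Their mean liver percentiles ran from 39.2 to 95 with a median of 72.1. The strongest outside promoters was chr1:136910216-136910645, 50 kb into the gene and in an intron, at 96.0 and 94.1. A second stood at chr1:136929798-136930072, with 94.5 and 95. The region chr1:136966317-136967606 upstream of the gene, at 91.6 and 97.9 in liver and 69.9 and 77.7 in kidney, was shared with kidney alone. None of the 4 motifs was found in the window of the strongest region.

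Nr5a2 intron, fed liver summit, chr1:136910263-136910562, minus strand: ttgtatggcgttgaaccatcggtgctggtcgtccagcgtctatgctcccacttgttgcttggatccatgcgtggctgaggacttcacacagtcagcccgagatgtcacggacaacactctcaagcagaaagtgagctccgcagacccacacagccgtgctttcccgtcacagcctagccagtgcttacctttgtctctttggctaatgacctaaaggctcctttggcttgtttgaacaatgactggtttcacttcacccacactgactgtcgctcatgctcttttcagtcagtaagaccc

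**Figure D4:**
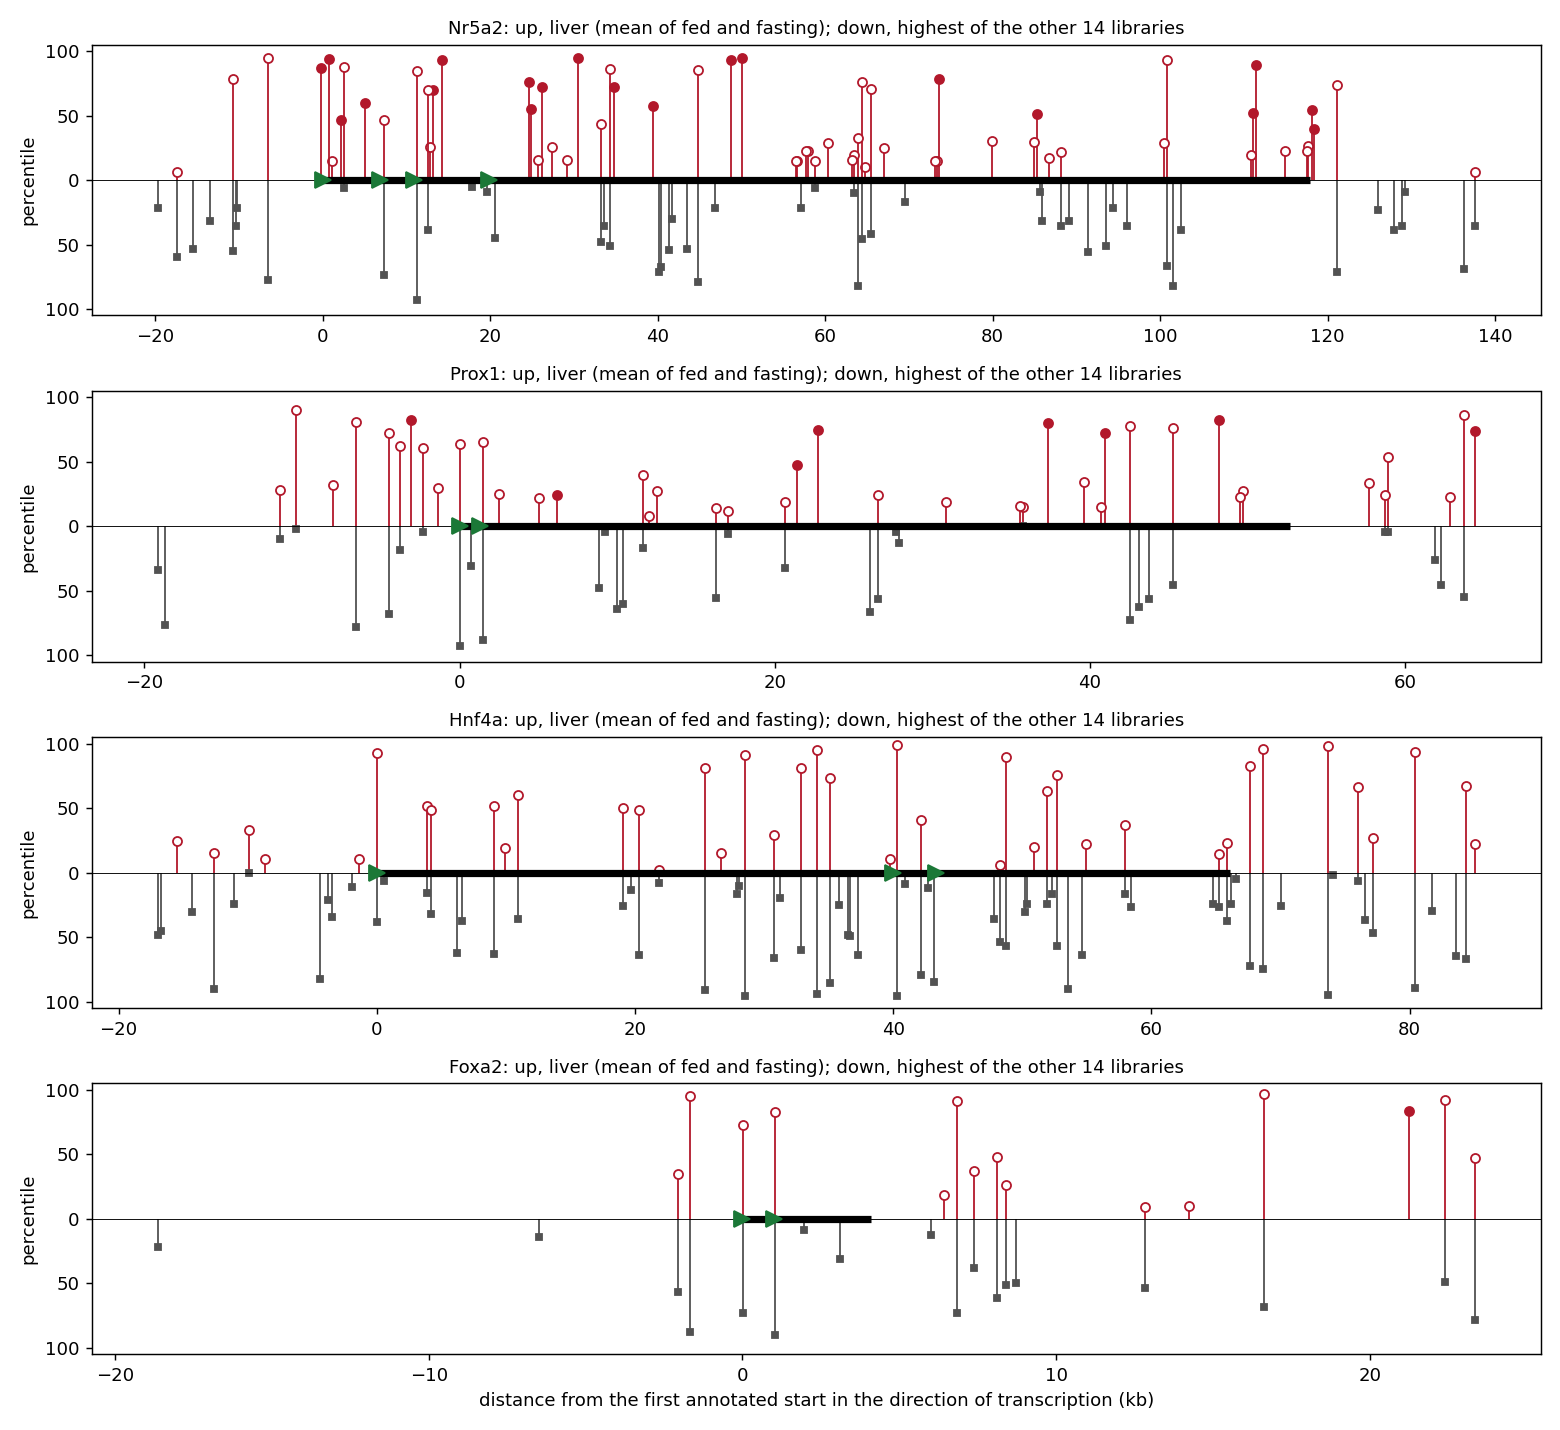
Merged regions at 4 loci by distance from the first start (x axis, kb, in the direction of transcription; black bar, gene; green arrows, starts). Upward lines give the mean percentile of the 2 liver libraries (filled, private to liver) and downward lines the highest percentile of the other 14 libraries. At Nr5a2 20 filled regions spread through the gene and at Prox1 8, while at Hnf4a none is filled and most strong liver regions have a partner below the line.

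Prox1 (ENSMUSG00000010175.13, chr1:190118035-190170714, minus strand) differed from the other members in that its promoter was not strongest in liver while its locus was. Its promoter percentile was 89.4 and 93.1 in muscle and 88.5 and 82.9 in heart. In liver it was 75.4 and 62.8, in kidney 59.6 and 68.6 and in lung 57.4 and 59.7, and in the fats and spleen it ran from 16.9 to 58.8. Muscle and heart thus lay above liver without overlap. At the first start (chr1:190170680-190170714) muscle had 131 and 273 tags, 20.5 and 25.9 times background. Within 500 bp of it liver had 32 and 56 tags, 11.4 and 19.9 times background, so on this scale fasting liver came close to muscle. The 5 lymphatic endothelium markers other than Prox1 (Lyve1, Flt4, Pdpn, Ccl21a and Reln) had means of 41.6 to 48.1 in muscle and heart. In liver the mean was 54.2 fed and 39.9 fasting, and Ccl21a was at 0 in all libraries. The part of lymphatic endothelium in the Prox1 peaks was not tested. The start of Prox1os, an antisense gene, lies 418 bp away.

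The Prox1 locus held 45 and 58 peaks in liver, 20 and 21 in heart, 13 and 14 in kidney, 11 and 11 in muscle and 2 to 7 elsewhere. Liver was the highest at 17.4 and 23.9 per 100000, against 9.57 and 9.48 in heart. Of 55 merged regions 8 were private to liver, 6 of them inside the gene, with mean liver percentiles of 24.5 to 82.8. The locus also had 3 regions private to heart, for instance chr1:190127377-190127797 with 61.2 and 62.5, and none private to muscle. Muscle thus had the strongest start but no region of its own. The strongest liver region outside promoters, chr1:190180948-190181189, lay 10.4 kb upstream of the first start at 93.0 and 87.8, with only 2.33 in fasting kidney elsewhere. It is shown as a region listed almost only in liver near a gene whose start is not led by liver, and it holds the NR5A2 motif CAAGGTCA.

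Prox1 upstream region, fed liver summit, chr1:190180936-190181235, minus strand: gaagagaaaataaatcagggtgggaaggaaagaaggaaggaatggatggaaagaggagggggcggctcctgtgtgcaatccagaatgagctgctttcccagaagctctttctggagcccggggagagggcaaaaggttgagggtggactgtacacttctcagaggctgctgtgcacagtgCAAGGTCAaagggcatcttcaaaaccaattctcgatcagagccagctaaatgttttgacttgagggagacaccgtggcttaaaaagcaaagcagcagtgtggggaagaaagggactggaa

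Motifs of the factors themselves were counted, on both strands, in windows of 300 bases at the fed liver summits: FOXA TGTTTAC, HNF4 CAAAGTCCA, ONECUT ATTGAT and NR5A2 CAAGGTCA. Among the strongest peak at each of 15 starts, FOXA was found in 1 (Nr5a2, in the first 3000 bp), HNF4 in 1 (second start of Prox1), ONECUT in 3 (first start of Hnf4a, second of Onecut1, first of Prox1), and NR5A2 in none. Of all 97705 windows near starts in fed liver, 3.79%, 0.848%, 6.17% and 1.99% held the FOXA, HNF4, ONECUT and NR5A2 letters. In the strongest region outside promoters of the 7 loci, FOXA was found in 2 (Foxa1 and Foxa3) and NR5A2 in 1 (Prox1), and HNF4 and ONECUT in none. Of all 160361 such windows 5.69%, 1.19%, 11.4% and 2.66% held them, in the same order. A match is a match of letters only, and with so few windows no share of the members can be set against these.

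In response to fasting, the liver promoters of 6 members moved by at most 3.61 points. The percentile difference (fasting minus fed) was -0.198 for Hnf4a, -1.06 for Foxa1, -0.524 for Foxa2, 1.36 for Foxa3, 2.75 for Onecut1 and 3.61 for Nr5a2. For Prox1 it was -12.7. Prox1 was thus the 1 member of 7 with at least 10 points between the states in liver, beside 23.2% of all genes, and its strongest promoter peak was not the same in the 2 libraries, with summits at -2260 bp from the first start in fed and at 431 bp in fasting liver. In a window of 1000 bp, or with 1 peak per region, no member differed by 10 points.

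In the other tissues 0 to 5 members differed between the states by 10 points or more. At least 10 points separated the states for 0 of 7 members in kidney (7.92% of all genes), 1 in lung (10.1%), 1 in muscle (9.50%), 5 in spleen (17.2%), 3 in white adipose (16.2%), 2 in heart (17.0%) and 2 in brown adipose (13%). For instance, Foxa2 stood at 9.83 with 13 tags in fed heart (summit at -1684 bp) and at 49.2 with 19 tags in fasting heart (-33 bp), which are different sites. In white adipose it stood at 44.8 with 43 tags fed (-1625 bp) and at 10.2 with 16 tags fasting (-1634 bp). The spleen peaks held few tags, for instance 14 fed and 19 fasting for Foxa1 and 15 and 24 for Nr5a2. For Prox1 in spleen the 16 tags fed and 14 fasting lay at different starts. An exact two-sided sign-flip test over the 8 tissues, whose smallest p is 0.00781, called 0 of 7 members at an unadjusted p under 0.05, beside 5.25% of all genes. After Benjamini-Hochberg adjustment 0 of 19719 genes passed. The mean difference over tissues ran from -6.23 points for Hnf4a (exact permutation p = 0.312) to 7.80 for Foxa2 (exact permutation p = 0.375).

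The tags themselves moved with the whole library. Here the promoter peak with the most summit tags was taken in each library, which need not be the peak of highest percentile. In liver its tags over background were higher in fasting than in fed for 7 of 7 members, with a median log2 ratio of 0.93. Over 16113 genes with a peak in both liver libraries the median log2 ratio was 0.84 and 87.2% were higher, so the shift of the members was close to that of all promoters. The members ran from 0.49 for Prox1 to 1.28 for Foxa3 and 1.26 for Nr5a2. In brown adipose 5 members had a value and all were lower in fasting (median -0.81), where the median of all genes was -0.87. In lung, Foxa1 and Foxa2 were at 0.63 and 0.76 against a median of 0.09 over all genes, and with 1 library per state the difference has no replicate check.

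**Figure D5:**
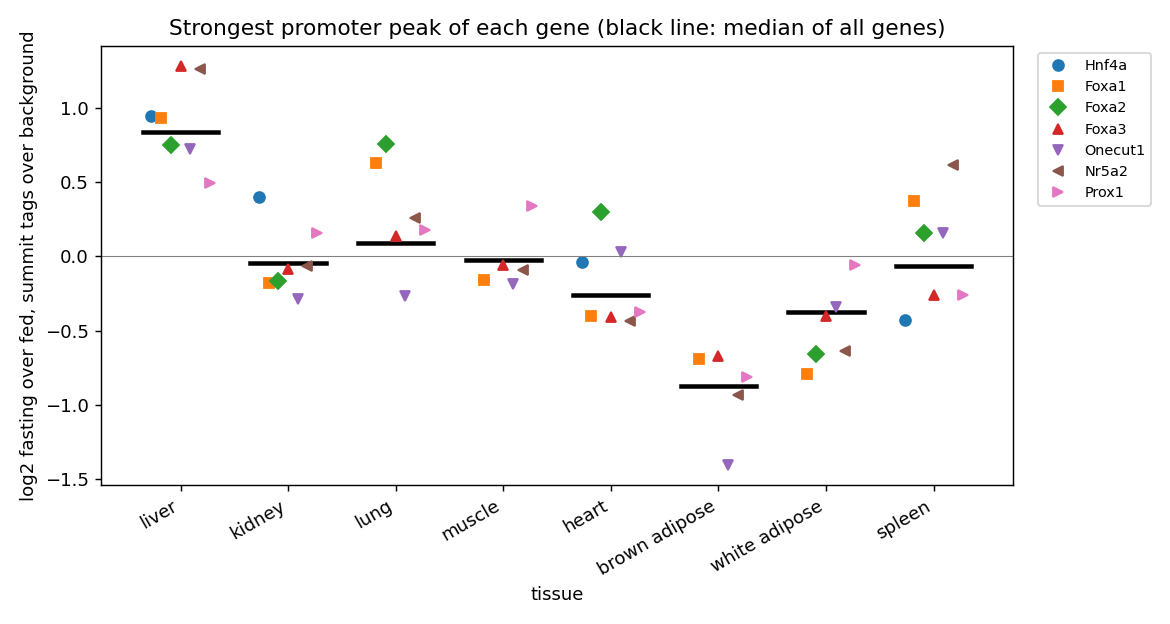
Log2 ratio of summit tags over background, fasting over fed, for each gene (symbols) in each tissue, with the median of all genes with a peak in both libraries (black line). The strongest promoter peak is here the one with the most summit tags in each library. In liver all 7 symbols lie above 0 and around the line at 0.84, and in brown adipose all lie below 0 around -0.87.

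A promoter peak with q under 0.01 was listed in all 16 libraries for 5 of the 7 members, Foxa1, Foxa3, Onecut1, Nr5a2 and Prox1, beside 59.9% of all genes. Hnf4a and Foxa2 were the exceptions. At the level of single starts, 2 of 16 (Foxa3 and the third of Nr5a2) had a peak with q under 0.01 within 500 bp in all libraries. In both liver libraries 14 of 16 had one. The same share over all annotated starts was not computed, so these start counts only describe the members. The count of 5 genes fell to 1 at q under 1e-06, 2 at equal depth and 3 in a window of 1000 bp.

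Beyond the 7 members, 18 other factors of hepatocytes were counted. Both liver libraries stood above all others for 7 of the 18, beside 6.10% of all genes tested. Among these were Nr1h4, Nr0b2, Nr1i2, Nr1i3, Gata6 and Creb3l3. Of these, the bile acid receptor FXR (Nr1h4) stood at 95.1 and 96.7 and its target SHP (Nr0b2) at 96.1 and 84.2 in liver. The highest liver values of the list were those of Tbx3 (99.2 and 99.4), which was as high in heart (99.5 and 99.8), and the lowest those of Onecut2 (76.6 and 86.7). None of the 18 was higher in liver, kidney and lung at an unadjusted exact permutation p under 0.05. Among 18 target genes of these factors liver led for 11, beside the same 6.10% of all genes. Both lists were counted by p only, not by fold. Tdo2, for instance, stood at 99.2 and 98.3 in liver against at most 75.9 elsewhere. Cyp7a1, the rate-limiting enzyme of bile acid synthesis, stood at 89.1 and 90.5 against at most 22.8. Of the targets, Apoa1 alone was higher in liver, kidney and lung at an unadjusted p under 0.05, by 6.37 points (exact permutation p = 0.0179).

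The genes whose promoter percentiles followed those of a member most closely over the 16 libraries were found by Pearson correlation, given as a description since the libraries are not independent (all fed tissues share 1 pool of mice, and so do all fasting ones). For Hnf4a they were Dpys, which breaks down pyrimidines (r = 0.979), and Bhmt2 and Dmgdh, enzymes of methionine and choline metabolism that had the same values (r = 0.977). For Foxa2 they were Tgfa (0.921), Smim6 (0.911) and Cyp3a13 (0.904), and those named for Foxa1 were Krt23 (0.851) and Gjb2 (0.824). Nr5a2 was followed by Kcne1 (0.929), Agtr1a (0.926) and Dapk2 (0.897), and Onecut1 by Dpep1 (0.895), Nlrp6 (0.881) and Creb3l3 (0.868). For Prox1 they were Pgm5 (0.854), Trim63 (0.824) and Nmrk2 (0.822), of which the latter pair are genes of striated muscle. For Foxa3, apart from Sympk, Tln1 and Creb3 shared the same values (0.974). Among the members the closest pair was Foxa1 and Foxa2 (0.725), followed by Hnf4a with Nr5a2 (0.611) and with Onecut1 (0.610), and Prox1 was closest to Nr5a2 (0.437).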

How the data were processed

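ATAC-seq peak lists of 16 pooled libraries (8 tissues, fed and fasting, 1 library each) were used. According to the study's methods and the labels, the authors trimmed reads, aligned them to GRCm38 with Bowtie2, removed duplicates, called peaks with MACS2 and kept at most 300000 peaks outside blacklisted regions. The deposited lists give fold enrichment as a ratio, the p-value and q-value as -log10, and the summit. Versions are not given in the sources used here, and no signal between peaks was analysed here.

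Percentiles were computed from -log10 p within each list. Tags per summit were recovered from fold and p, which gave whole numbers within 0.001 for 100.0% of peaks. Starts were those of GENCODE vM21, merged within 500 bp. Liver, kidney and lung were compared with the other tissues by exact permutation, and states by exact sign flips, for every protein-coding gene, with Benjamini-Hochberg adjustment over all. Sequences came from the GRCm38.p6 assembly of RefSeq. The tests were tested on simulated data. Python 3.11.15, numpy 2.4.6, scipy 1.17.1, numba 0.67.0 and matplotlib 3.10.9 were used.

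Named were all members, their starts, the strongest promoter peak and liver region outside promoters of each, the 3 genes most correlated with each, and the extremes of the list of other factors. Where a count was 5 or fewer, or where a gene stands beside a result, genes outside this rule (targets, markers and further regions) were chosen after their values were seen, as was the distance of 500 bp around a start. Some genes and 1 motif that these rules select are not reported here. The members and lists were chosen with earlier results of these data known. P-values measure the spread between tissues, since no group has a replicate. Intervals cover counting error only.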

Additional observations from a re-analysis of the deposited data

How the results depend on the processing

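Ranked by fold enrichment, the median liver percentile of the members was 85.2 (95.4 by p), liver led for 2 members (5) and 1 was higher in liver, kidney and lung (2). In a window of 1000 bp liver led for 3. At equal depth 1 member was higher in the 3 tissues. Leaving out 1 of the other tissues gave 1 to 2 members, with fewer choices of tissues and so a higher smallest p. Leaving out any tissue gave 0 members with a fasting shift. With 1 peak per region or the window of 1000 bp, 0 members differed by 10 points in liver (1). Members listed in all libraries numbered 1 at q under 1e-06, 2 at equal depth and 3 in the window (5). At q under 1e-06 the loci held 330 liver peaks (559) and 21 liver-private regions (38). Ranked by fold, the difference between the 3 tissues and the others changed sign for Foxa3 (-2.44), Onecut1 (-1.07) and Prox1 (-10.6). The fasting difference changed sign for Nr5a2 with 1 peak per region (0.634) and at equal depth (4.39), and for Prox1 at equal depth (2.60). None of these 6 had passed the test. The cause was not tested. The other 41 alternatives kept the counts within 1.5 times or the median within 5.44 points, the SD of the members' differences between the liver libraries. At equal depth, tags were drawn down to the shallowest library. Depth limits absence: a site under the last listed p is not seen. No paired analysis was possible because every group has a single library and so no replicate numbers to pair. Fed and fasting were paired by tissue in the sign-flip test.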
